A study of Mus musculus with 6 samples.

Results

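The interferon response genes are a group of transcripts that cells switch on when interferon reaches them. They were chosen by name, as 37 listed genes with all their probes. They have 50 of the 55681 non-control probes and 37 of the 36163 gene names on the array. All 37 had a probe well above background on every array, and 48 of the 50 probes were tested. Jejunum RNA of 6 C57BL/6J males was measured, each mouse on an array of its own with 1 colour channel. In the vehicle group, 3 mice received vehicle by the intragastric route, and in the VND3207 group 3 mice received VND3207 at 100 mg/kg by the same route. Every mouse was irradiated with 9 Gy 0.5 h later and sampled 6 h after radiation, so no group is without radiation, and age is not given in the sources used here. The question of the design is what VND3207 changes in irradiated jejunum, and the values below set each mouse beside the others.

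Type I and type III interferons bind receptors that act through the kinases JAK1 and TYK2 on a complex of transcription factors that includes STAT2 and IRF9. This complex binds a promoter sequence called the interferon-stimulated response element, whereas interferon gamma acts through gamma-activated sites. The induced genes encode sensors of viral nucleic acid, factors that feed the response back on itself, and proteins that block viral or intracellular bacterial growth. In the gut, epithelial cells and immune cells of the lamina propria both carry the response.

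The scanner headers place all 3 vehicle arrays on slide 1 and all 3 VND3207 arrays on slide 2, each slide with a scan of its own, so slide and treatment cannot be told apart. Spots well above background made up 66.7% to 70% of each vehicle array and 58.8% to 61.4% of each VND3207 array. No spot was saturated, and the number of arrays limits the precision. Smooth muscle markers stood apart in VND3207 replicate 3, with a median deviation from the gene means of -1.84 against 0.16 to 0.57 in the other 5 mice. The same mouse had the highest T and NK cell marker score, at 0.49 against -0.17 to -0.01. Absorptive enterocyte markers, which define the jejunal epithelium, were well above background on the arrays, with a median vehicle level of 8.49 on the log2 scale used here. That scale is the log2 signal of a probe minus the 75th percentile of its array, and levels are not compared between probes.

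Many genes of this response carry a known promoter element, and stretches of 6 member promoters that hold its core are shown first, read from RefSeq on the GRCm38.p6 build. Capitals mark matches to the core of the interferon-stimulated response element, GAAA followed by 2 bases of any kind and a further GAAA, searched on both strands. On the opposite strand the same core reads as TTTC, 2 bases and TTTC.
Isg15, chr4:156200850-156200909, minus strand: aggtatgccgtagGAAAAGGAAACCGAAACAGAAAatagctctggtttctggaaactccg
Ifit1, chr19:34640779-34640838, plus strand: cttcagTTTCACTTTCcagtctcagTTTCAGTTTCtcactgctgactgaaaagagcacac
Rsad2, chr12:26456538-26456597, minus strand: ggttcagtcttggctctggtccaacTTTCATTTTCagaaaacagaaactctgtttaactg
Oas1a, chr5:120907526-120907564, minus strand: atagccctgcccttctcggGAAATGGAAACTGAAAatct
Stat2, chr10:128270251-128270310, plus strand: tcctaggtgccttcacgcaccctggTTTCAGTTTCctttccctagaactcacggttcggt
Gbp2, chr3:142620579-142620638, plus strand: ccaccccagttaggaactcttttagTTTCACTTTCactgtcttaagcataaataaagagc

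RefSeq's promoter table held 30 promoters of 26 members, and 11 members had no entry. In the 250 bases before the start, that core occurred in 12 of the 30 promoters (40%), against 978 of all 32851 promoters (2.98%). Isg15 carried 3 overlapping matches, of which the nearest began 66 bases before the start. The letters TTCNNNGAA, the core of the gamma-activated site, occurred in 7 of the 30 (23.3%) and in 7.02% of all promoters, and matches to both motifs overlapped in 1 member promoter. These are matches of letters and say nothing of binding in these mice.

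The members differed most between mice of the same group. In the vehicle group replicate 3 was the lowest mouse for 36 of the 37 members, and replicate 2 the highest for 32. Ifi44, an interferon-induced gene of the antiviral response, was 7.60-fold higher in vehicle replicate 2 than in vehicle replicate 3. For Rsad2, which encodes the antiviral enzyme viperin, the same ratio was 6.77, and for Usp18, which encodes the protease that removes ISG15 from proteins, it was 6.45. The median member spanned 1.31 on the log2 scale among the vehicle mice and 0.42 among the VND3207 mice, where all tested probes spanned 0.34 and 0.33.

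**Figure D1:**
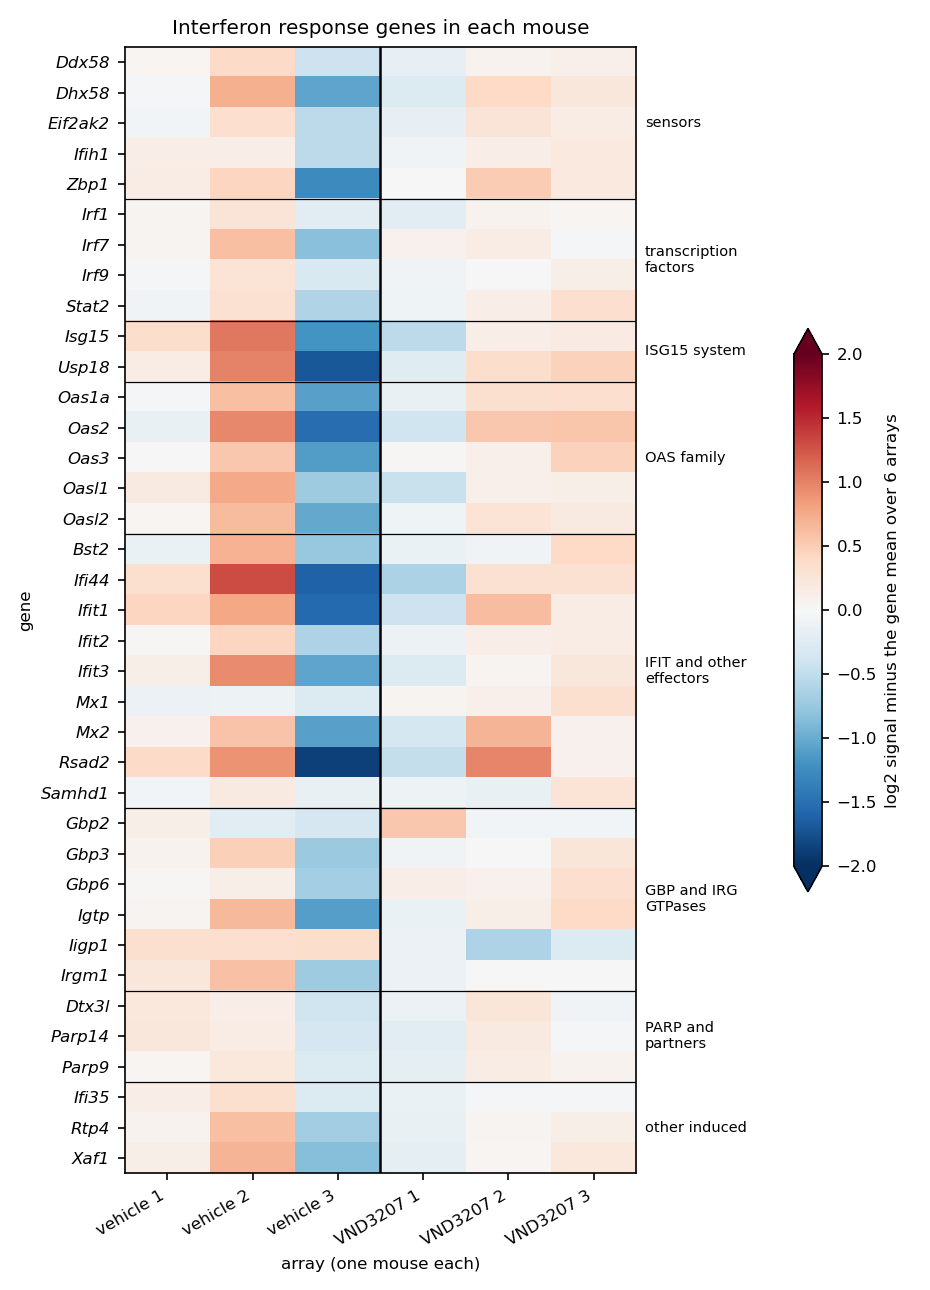
Heat map of the 37 members (rows, by role) in the 6 mice (columns), coloured by the deviation of the log2 signal from the mean of that gene in all mice. Vehicle replicate 3 is blue and vehicle replicate 2 red in most rows, and the 3 VND3207 columns are paler.

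The score of a mouse is the median over the 37 members of the deviation from each gene's mean over the 6 mice. It was 0.06, 0.53 and -0.71 in vehicle replicates 1, 2 and 3, and -0.13, 0.13 and 0.16 in VND3207 replicates 1, 2 and 3. The highest and the lowest score both lay in the vehicle group, and the VND3207 mice lay between them. In vehicle replicate 2, 35 of the 37 members were above their own mean, and in vehicle replicate 3 only 1 was. Vehicle replicate 3 was the lowest of all 6 mice for 35 members, the exceptions being Irf1 and Iigp1. Among all tested probes with a value on each array, vehicle replicate 3 was the lowest vehicle mouse for 39.4% and the lowest of all 6 for 17%. Of the probes between the lower and upper quartile of the members' brightness, vehicle replicate 3 was the lowest vehicle mouse for 46.1%. In the VND3207 group replicate 1 was the lowest mouse for 32 members, against 39.3% of all probes. A trend correction, which removes from each array smooth trends along the rows and columns of spots and with brightness and base composition, gave scores of 0.04, 0.47 and -0.69 in the vehicle mice and of -0.14, 0.12 and 0.12 in the VND3207 mice. The range among vehicle mice was larger than that among VND3207 mice for 33 of the 37 members, against 50.4% of all probes, and it exceeded the size of the difference between the groups for 35, against 63.9% of all probes.

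The ISG15 system had the widest span between vehicle mice, with a median of 2.47 over its 2 genes. Isg15 encodes a ubiquitin-like protein that is attached to other proteins during the response. Its log2 level was 6.38, 7.08 and 4.83 in vehicle replicates 1, 2 and 3, and 5.50, 6.15 and 6.19 in VND3207 replicates 1, 2 and 3. Vehicle replicate 2 was the highest and vehicle replicate 3 the lowest of the 6 mice, so the groups overlapped. Usp18 stood at 2.98, 3.82 and 1.13 in the vehicle mice and at 2.58, 3.18 and 3.29 in the VND3207 mice. Again the vehicle group held both ends, and vehicle replicate 3 was the only mouse below 2.58. In mm9 coordinates, as the scanner headers give them, the Isg15 probe lies at chr4:155573649-155573708.

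IFIT proteins bind foreign RNA, and they and the other antiviral effectors had a median vehicle span of 1.65 over 9 genes, from 0.17 for Mx1 to 2.93 for Ifi44. Ifi44 was at 1.16, 2.15 and -0.77 in vehicle replicates 1, 2 and 3, and at 0.21, 1.15 and 1.15 in the VND3207 mice. Rsad2 was at 1.04, 1.55 and -1.21 with vehicle and at 0.18, 1.64 and 0.74 with VND3207. For both genes vehicle replicate 3 was the only mouse below 0, and VND3207 replicate 1 was the next lowest. Ifit1 was at 2.75, 3.10 and 0.77 with vehicle and at 1.92, 2.94 and 2.47 with VND3207, a span of 2.32 among the vehicle mice. Mx2, of the same dynamin-like GTPase family as Mx1, was at 0.99, 1.47 and -0.18 with vehicle and at 0.55, 1.58 and 0.98 with VND3207. The other members of the group were Ifit3, Bst2 (tetherin), Ifit2 and Samhd1, with spans between vehicle mice of 2.00, 1.44, 1.04 and 0.33.

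Enzymatically active OAS proteins make a second messenger that activates RNase L. The 5 measured genes of the OAS family, which includes the OAS-like genes Oasl1 and Oasl2, spanned 1.47 to 2.49 among the vehicle mice. Vehicle replicate 3 was lowest in each. Oas2 was at 2.04, 3.15 and 0.65 with vehicle and at 1.78, 2.72 and 2.74 with VND3207. Oas1a was at 6.25, 6.89 and 5.20 with vehicle and at 6.13, 6.61 and 6.62 with VND3207, and Oas3 at 1.25, 1.77 and 0.12 with vehicle and at 1.26, 1.35 and 1.70 with VND3207. In all of them the VND3207 values fell inside the span of the vehicle mice. Oasl1 and Oasl2 spanned 1.47 and 1.65. The OAS, IFIT and GBP families hold close paralogs, whose transcripts a probe may not separate.

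Transcription factors and sensors spanned less, with medians of 0.75 over 4 genes and 0.85 over 5. Irf7, the factor that amplifies type I interferon production, was at 2.89, 3.43 and 1.99 with vehicle and at 2.92, 2.97 and 2.79 with VND3207. The vehicle mice enclosed the 3 VND3207 mice, which lay within 0.19 of each other. Stat2 was at 3.27, 3.65 and 2.75 with vehicle and at 3.25, 3.48 and 3.68 with VND3207, so that VND3207 replicate 3 was the highest mouse by a small margin. Irf9 and Irf1 had spans of 0.59 and 0.46. Zbp1, a sensor of Z-form nucleic acid, was at 3.91, 4.19 and 2.49 with vehicle and at 3.77, 4.27 and 3.96 with VND3207. Only vehicle replicate 3 stood apart for Zbp1, on the brighter of its 2 probes. The other sensors were Dhx58, Eif2ak2 (the kinase PKR), Ddx58 (RIG-I) and Ifih1 (MDA5), with spans of 1.76, 0.85, 0.79 and 0.65.

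Guanylate-binding proteins and immunity-related GTPases act on vacuoles that hold pathogens, and many are strongly induced by interferon gamma. Their median vehicle span was 1.01 over 6 genes. Igtp was at 4.67, 5.26 and 3.52 with vehicle and at 4.49, 4.74 and 5.02 with VND3207. Gbp2 was at 1.22, 0.91 and 0.77 with vehicle and at 1.65, 1.06 and 1.07 with VND3207, with VND3207 replicate 1 highest and vehicle replicate 3 lowest. Gbp6 was at -1.41, -1.31 and -2.12 with vehicle and at -1.29, -1.35 and -1.09 with VND3207, on a probe whose accession RefSeq now assigns to Gbp7. Irgm1 and Gbp3 spanned 1.30 and 1.22. The PARP group, Dtx3l, Parp14 and Parp9, had the smallest median span of the roles, 0.56, and of the remaining members Xaf1, Rtp4 and Ifi35 spanned 1.54, 1.31 and 0.60.

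**Figure D2:**
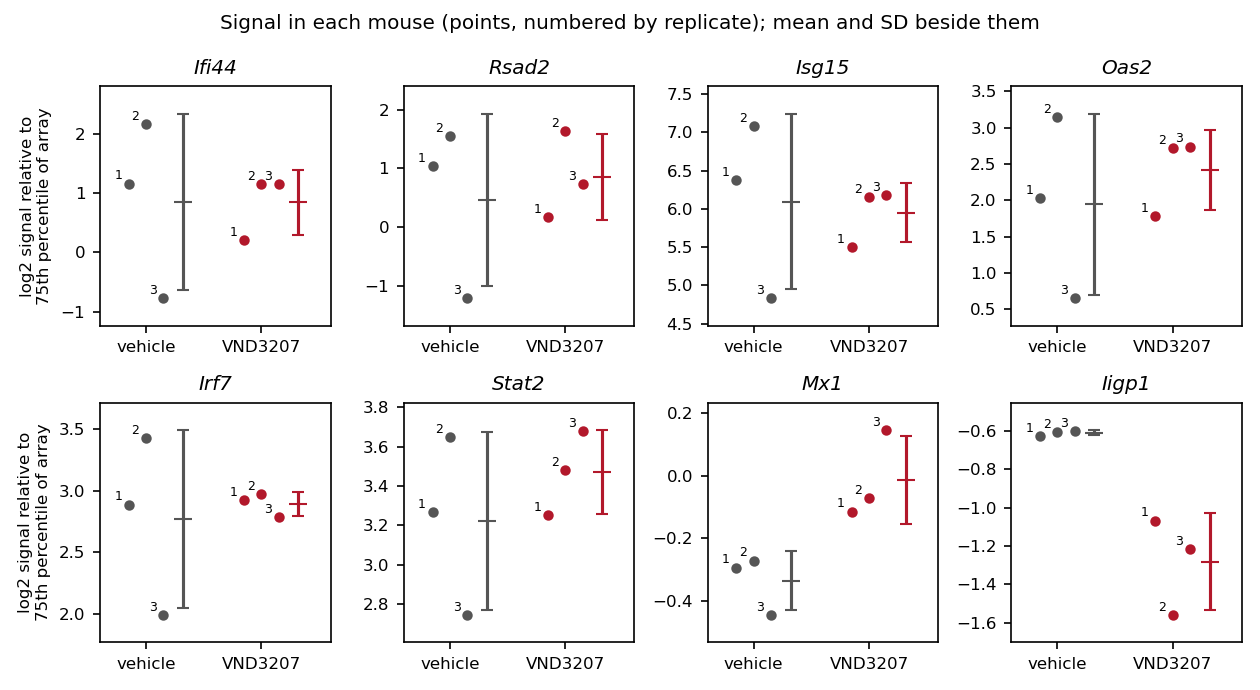
Log2 signal relative to the 75th percentile of the array for 8 members, with 1 point per mouse numbered by replicate and, beside the points, the mean and SD of the 3 mice. The vehicle points enclose all VND3207 points for Isg15, Ifi44, Oas2 and Irf7, while the groups do not overlap for Mx1 and Iigp1.

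Some members have further probes, at other spots of the same arrays. Of 11 such tested probes of 10 members, vehicle replicate 3 was the lowest vehicle mouse on 9 and vehicle replicate 2 the highest on 10. The dimmer Isg15 probe was at 2.80, 3.64 and 1.27 in the vehicle mice. The exceptions to the order in replicate 3 were the dimmer probes of Iigp1 and Zbp1. On the latter, vehicle replicate 2 and VND3207 replicate 3 were high, at 2.09 and 1.67, against -0.37 to 0.47 in the other 4 mice. Among members with a promoter entry, the 12 with the response element core had a median vehicle span of 1.67 (0.45 to 2.76) and the 14 without it 0.82 (0.33 to 2.93), and the members without an entry 1.31. The ranges overlapped, and the difference was not tested.

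Between the groups, most members differed by less than the vehicle mice did among themselves, and the size of the differences was poorly resolved. With VND3207, 29 of the 37 were above 0, with a median log2 difference of 0.13 and values from -0.67 to 0.47. All tested probes had a median of -0.06 and 41.9% above 0. Tested probes between the lower and upper quartile of the members' brightness had a median of 0.04 and 58.5% above 0. Of the 37 members 0 were called higher and 1, Iigp1, was called lower (limma, Benjamini-Hochberg adjusted p under 0.05 over all 36095 probes tested), and over all probes the same test called 0.925% higher and 14.6% lower, or 15.5% in either direction. At an unadjusted p under 0.05, 1 member was higher (Mx1; all probes 4.93%) and 1 lower (Iigp1; all probes 22.2%). Of the 6032 tested probes in the members' brightness range, 0.746% were called higher and 2.54% lower. The count of members called higher is thus near both shares. The count called lower is below that of all probes and near that of probes of like brightness. After the trend correction the member median was 0.07 with 24 above 0, against 53.2% of all probes, and again 0 members were called higher and 1 lower, against 4.39% and 6.72% of all probes. With quantile normalization the median was 0.15 with 31 above 0, against 55.7% of all probes, and 0 were called higher and 1 lower, against 2.59% and 8.97%.

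**Figure D3:**
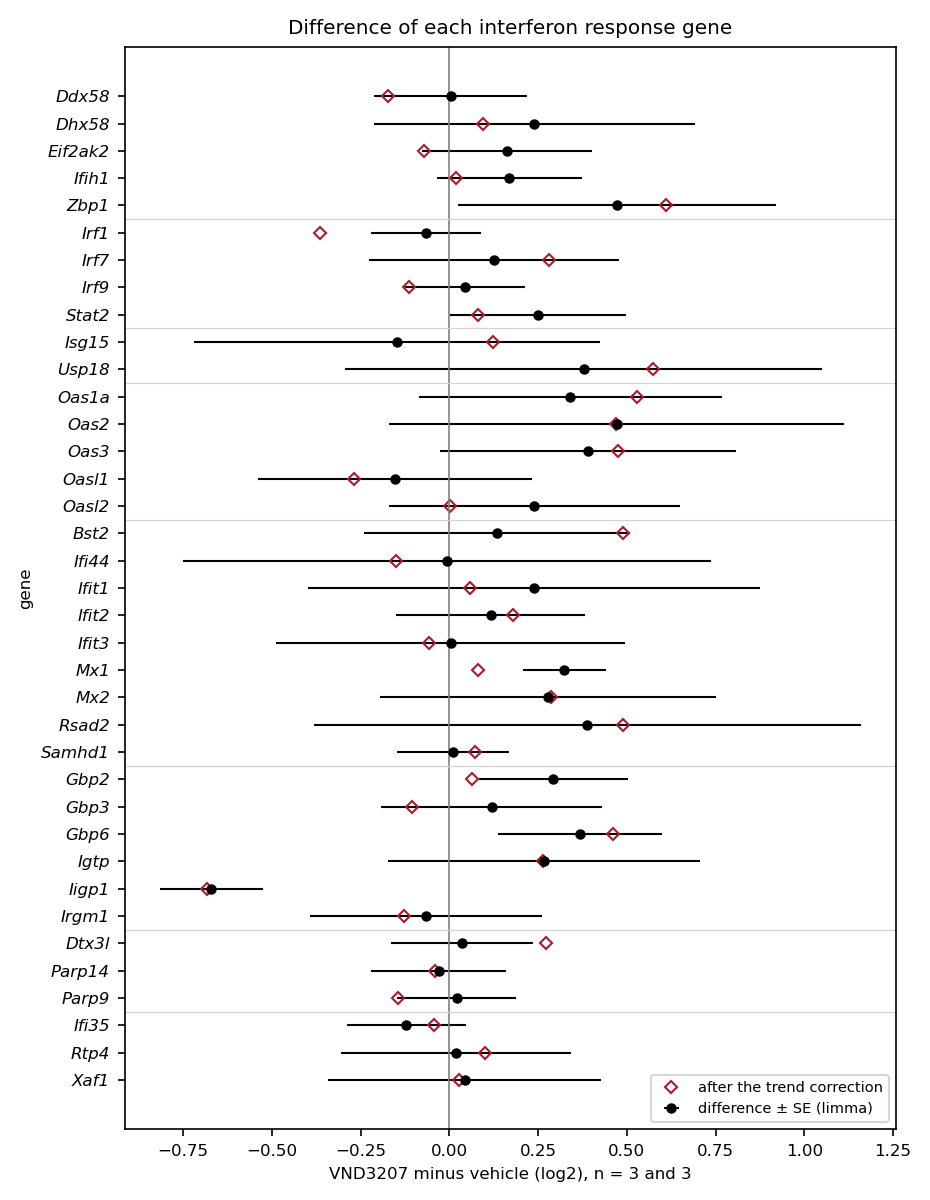
Log2 difference, VND3207 minus vehicle, of the probe representing each of the 37 members, with 3 mice per group. Black points and bars are the difference and its limma SE, red diamonds the difference after the trend correction, and Iigp1 at -0.67 lies farthest from 0.

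Iigp1, an immunity-related GTPase gene, was at -0.63, -0.61 and -0.60 in the vehicle mice and at -1.07, -1.56 and -1.22 in the VND3207 mice. The 3 VND3207 mice were all below the vehicle mice, which lay within 0.03 of each other and did not follow the order of the other members. Iigp1 fell by 0.67 on the log2 scale (SE 0.15, n = 3 and 3, limma adjusted p = 0.0283), and by 0.68 after the trend correction (adjusted p = 0.041). Its other, dimmer probe was at -3.29, -3.42 and -3.39 with vehicle and at -3.0, -3.73 and -3.49 with VND3207. On that probe the groups overlapped, with a difference of -0.04 (SE 0.19, adjusted p = 0.927), and the mean of both probes was not called (-0.36, adjusted p = 0.232). The call was lost without vehicle replicate 1, 2 or 3 (adjusted p = 0.0736, 0.0961 and 0.0842) and without VND3207 replicate 2 or 3 (adjusted p = 0.0515 and 0.0552). Scaling the arrays to their median also ended it (-0.37, adjusted p = 0.0938), and with the trend correction it was lost in each of the 6 fits that left out 1 array (adjusted p from 0.0561 to 0.13).

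Mx1 was the member whose VND3207 values all lay above its vehicle values, an arrangement found for 9.41% of all probes, while the reverse, as for Iigp1, was found for 24.8%. It encodes the dynamin-like antiviral GTPase that gave the family its name, and the allele of C57BL/6 mice is known to make no functional protein. Mx1 was at -0.29, -0.27 and -0.45 with vehicle and at -0.11, -0.07 and 0.15 with VND3207. Its difference was 0.32 (SE 0.12, n = 3 and 3, limma adjusted p = 0.135) and 0.08 after the trend correction (adjusted p = 0.719). Scaled to the median of the arrays, a choice that moved the median of all probes by 0.30, Mx1 was called higher at 0.62 (adjusted p = 0.0172), as were 18.4% of all probes.

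The largest positive differences were those of Zbp1 at 0.47 (SE 0.45, limma adjusted p = 0.579) and Oas2 at 0.47 (SE 0.64, adjusted p = 0.708). Oas3, Rsad2, Usp18, Gbp6, Oas1a, Gbp2, Mx2, Igtp, Stat2 and Ifit1 lay between 0.24 and 0.39 with an SE of 0.21 to 0.77, and Irf7 was at 0.13. Isg15 was at -0.15 (SE 0.57, adjusted p = 0.903) and Ifi44 at -0.01 (SE 0.74, adjusted p = 0.997). Apart from Iigp1 and Mx1, the smallest adjusted p on the brightest tested probe of a member was 0.381, for Gbp6. The dimmer probe of Samhd1 was at 0.33 (limma adjusted p = 0.295) and its brighter probe at 0.01. Second probes of the same gene disagreed by more than 0.5 for Zbp1 (0.47 and -0.36) and Iigp1. By role, the OAS genes had a median difference of 0.34, the GTPases 0.19, the sensors 0.17, the effectors 0.13, the ISG15 system 0.11, the transcription factors 0.09, and the PARP group and the other induced genes 0.02 each.

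The direction of the members' median difference changed when vehicle replicate 3 was left out, and the median was larger without vehicle replicate 2. Without vehicle replicate 3, 33 of the 37 members were below 0 and their median was -0.20, Gbp2, Gbp6, Mx1 and Stat2 being the 4 above 0. Without vehicle replicate 2, 36 were above 0 with a median of 0.39. In the first case Isg15 was at -0.78 (SE 0.32, limma adjusted p = 0.213) and Ifi44 at -0.82 (SE 0.44, adjusted p = 0.334). In the second Isg15 was at 0.34 (SE 0.51, adjusted p = 0.779) and Ifi44 at 0.65 (SE 0.65, adjusted p = 0.66). Of the 37 members 0 were called by limma in either of these fits, against 11.6% of all probes without vehicle replicate 3 and 8.66% without vehicle replicate 2. At an unadjusted p under 0.05 there were 2 members without vehicle replicate 3 and 1 without vehicle replicate 2, against 25.5% and 22.5% of all probes. Without vehicle replicate 1 or VND3207 replicates 1, 2 and 3, the medians were 0.18, 0.20, 0.07 and 0.08. After the trend correction the median was likewise below 0 without vehicle replicate 3 (-0.19) and larger without vehicle replicate 2 (0.41). After that correction the median was also close to 0 without VND3207 replicate 2 (0.02, 20 members above 0) and without VND3207 replicate 3 (-0.0049, 18 above 0).

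**Figure D4:**
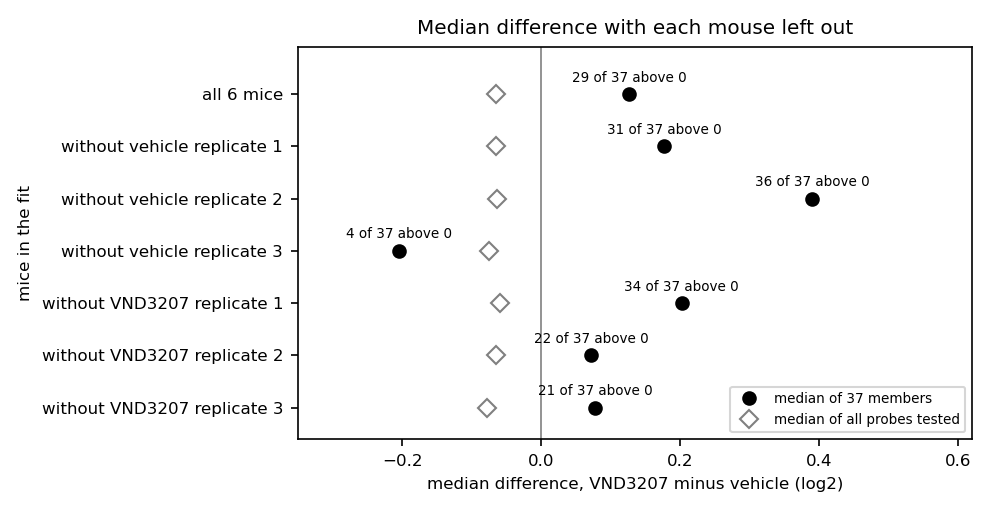
Median log2 difference, VND3207 minus vehicle, over the 37 members (black) and over all probes tested (open diamonds), with all 6 mice and with each mouse left out, and beside it the number of members above 0. The members' median runs from -0.20 without vehicle replicate 3 to 0.39 without vehicle replicate 2, while that of all probes stays between -0.08 and -0.06.

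Outside the 37 members, 34 further interferon-induced genes of a fixed list were tested. Vehicle replicate 3 was the lowest vehicle mouse for 28 of them and the lowest of all 6 for 25, and vehicle replicate 2 was the highest vehicle mouse for 23. The shares over all probes were 39.4%, 17% and 36.5%. Their scores were 0.08, 0.19 and -0.41 in the vehicle mice and 0.00, 0.05 and 0.12 in the VND3207 mice, the same order as for the members in the vehicle group. With VND3207, 29 of the 34 were above 0 with a median of 0.18, against 41.9% of all probes above 0. By limma 0 were called higher, against 0.925% of all probes, and 1 was higher at an unadjusted p under 0.05, against 4.93%. Tgtp1 (-1.48, adjusted p = 0.00558) and Cxcl11 (-0.75, adjusted p = 0.00694) were called lower by limma, as were 14.6% of all probes. Neither passed after the trend correction (adjusted p = 0.0822 and 0.198). The antigen transporter gene Tap1 had the largest positive difference, 0.44 (adjusted p = 0.318), on levels of 1.30, 1.59 and 0.66 with vehicle and of 1.55, 1.72 and 1.59 with VND3207.

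Upstream of the members, vehicle replicate 3 was the lowest vehicle mouse for 5 of 9 receptors and kinases and vehicle replicate 2 the highest for 3. By limma 0 were called and 0 had an unadjusted p under 0.05, while 6 were above 0 and the median was 0.06. The largest differences were those of the kinase genes Jak2 (-0.24) and Tyk2 (0.24) and of the receptor gene Ifngr2 (0.23). Of 13 signalling factors outside the members, vehicle replicate 3 was lowest of its group for 6 and vehicle replicate 2 highest for 5, and 9 were above 0 with a median of 0.05. By limma 0 were called and 1 had an unadjusted p under 0.05 (Ticam1), and the largest differences were those of Ticam1 (-0.25), Ikbke (0.21) and Mavs (-0.19). Among 7 negative regulators vehicle replicate 3 was the lowest vehicle mouse for 4 and vehicle replicate 2 the highest for 5, and 3 were above 0 with a median of -0.05. By limma 0 were called and 0 had an unadjusted p under 0.05, the largest differences being Adar at -0.26, Trex1 at -0.25 and Socs1 at 0.12. The dimmer Adar probe was at 0.32 (adjusted p = 0.199), against the direction of the brighter one. The smallest adjusted p over these 3 lists was 0.149 (limma), where 0.925% of all probes were called higher and 14.6% lower.

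Interferon genes themselves were dim. Of 15 on the array, 13 were tested, with a median vehicle level of -3.14, and vehicle replicate 3 was the lowest vehicle mouse for 3 of them and vehicle replicate 2 the highest for 9. With VND3207, 2 were above 0 and 6 were called lower by limma, against 14.6% of all probes (adjusted p from 0.000995 to 0.00456). These were Ifna13 (-1.69), Ifnab (-1.53), Ifna11 (-1.51), Ifna7 (-1.27), Ifna5 (-1.20) and Ifna2 (-1.15), whose sequences are closely related. The share of probes called lower varied with brightness (2.54% in the members' brightness range) and was not computed for probes as dim as these. After the trend correction Ifna13 (-0.70), Ifnab (-0.86) and Ifna11 (-1.01) were called lower, against 6.72% of all probes. Ifng, at 0.67 before the correction (limma adjusted p = 0.174), was called higher at 1.27 after it (adjusted p = 0.0255), against 4.39% of all probes. Ifnb1 was at -0.24 (adjusted p = 0.705), on a probe well above background on 1 of the 3 VND3207 arrays.

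Cell type markers were set beside the members because fewer cells of a type and less RNA per cell cannot be told apart in whole tissue. T and NK cell markers had scores of -0.12, -0.11 and -0.17 in vehicle replicates 1, 2 and 3 and of -0.01, -0.08 and 0.49 in the VND3207 mice. Their summed linear signal, relative to the 75th percentile of each array, was 144.5 to 173.5 over 10 genes in the vehicle mice and 132.3 to 189.7 in the VND3207 mice. Macrophage and dendritic cell markers had scores of 0.26, -0.13 and -0.10 with vehicle and of 0.13, -0.31 and -0.13 with VND3207, with sums of 195.8 to 217.5 and 102.2 to 125.2 over 8 genes. Most of that sum came from 1 probe of Siglech (7.11, 7.45 and 7.46 with vehicle, and 5.95, 6.07 and 6.48 with VND3207), whose other tested probe differed by -0.02. Without Siglech the sums over 7 genes were 41.0 to 57.5 and 35.3 to 40.6. B and plasma cell markers had 0.22, -0.02 and 0.03 with vehicle and 0.09, -0.38 and 0.18 with VND3207, and endothelial markers 0.09, -0.14 and 0.04 with vehicle and 0.23, -0.07 and -0.16 with VND3207. Of these 4 lists the endothelial one had the widest gap between vehicle replicates 2 and 3, -0.14 against 0.04, where the members had 0.53 against -0.71.

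Enterocyte markers had scores of 0.20, 0.37 and 0.19 with vehicle and of -0.31, -0.26 and -0.13 with VND3207, with sums over 8 genes of 2791 to 3243 and of 2024 to 2234. Of these 8, 5 were called lower by limma, against 14.6% of all probes. After the trend correction 1 was lower and 1 higher, against 6.72% and 4.39% of all probes. With quantile normalization 0 were called lower and 0 higher, against 8.97% and 2.59% of all probes. The share called lower was not computed for probes as bright as these. Limma also called lower Kdr and Pecam1 of 5 endothelial markers and Cd4 of 10 T and NK cell markers. Of 8 macrophage and dendritic cell markers, Siglech and Itgam were called lower. A dimmer probe each of Kdr (0.61) and Itgam (0.55) went the other way. After the correction Cd4, Siglech and Itgam were still called lower, and Kdr and Pecam1 were not. Smooth muscle markers were at 0.17, 0.16 and 0.57 with vehicle and at 0.46, 0.32 and -1.84 with VND3207, with sums over 5 genes of 159.3 to 199.1 and of 46.9 to 196.4. Pancreas markers had scores of 0.06, 1.22 and -0.17 with vehicle and of 0.08, -0.42 and -0.25 with VND3207, and their sums over 3 genes were 0.225 to 0.517 and 0.172 to 0.253. On an untested probe of Amy2a5, a pancreatic amylase gene, vehicle replicate 2 was at 0.82 and the other 5 mice were between -7.38 and -6.13, and an untested Pnlip probe was at -2.92 in vehicle replicate 2 and between -7.51 and -6.67 in the others. Vehicle replicate 2 thus had the highest score of the 6 mice for pancreas markers, for enterocyte markers and for the members. For enterocyte markers this did not hold after the trend correction (0.01, against 0.11 in VND3207 replicate 3). Nor did it hold for them with quantile normalization (0.02, against 0.05 in vehicle replicate 3). Vehicle replicate 3 had the highest smooth muscle score and the lowest member score. Vehicle replicate 3 was the lowest vehicle mouse for 6 of 8 enterocyte, 7 of 10 T and NK cell, 5 of 8 macrophage and dendritic cell, 3 of 3 pancreas, 2 of 4 B and plasma cell, 1 of 5 endothelial and 0 of 5 smooth muscle markers. Vehicle replicate 2 was the highest for 6, 4, 0, 3, 0, 1 and 0 of them in the same order of lists. The part of these markers in the spread of the members was not tested.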

How the data were processed

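RNA of the jejunum was hybridised to Agilent arrays with 1 colour channel (Cy3) and probes of 60 bases. The deposited intensity values are the processed signals of Agilent Feature Extraction 10.7.1.1, per the submitters' processing notes, and per the file headers probe positions are on mm9. The deposited value table, in log2 units, was an alternative only, and how the authors scaled it is not given in the sources used here. Control and outlier spots were left out, spots of a probe were averaged, and each array's 75th percentile was subtracted after log2. Probes with 3 or more of the 6 arrays well above background were tested with limma 3.58.1 in R 4.3.3 (lmFit and eBayes, 2-sided, group only), with Benjamini-Hochberg adjustment over 36095 probes and a threshold of 0.05. Errors after SE are limma's. Its p-values set the difference between the groups against the spread among the 3 mice within each group, moderated over all probes tested. They do not separate slide from treatment.

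A gene is represented by its brightest tested probe over all arrays. Named were Isg15, Mx1, Irf7, Stat2, Ifit1, Oas1a and Gbp2 whatever their values, members past the threshold and the 12 with the largest difference. Members with the 4 largest SDs within a group and those whose groups did not overlap were named too. From the lists of interferon genes, receptors and kinases, signalling factors, negative regulators and further induced genes, the 3 largest differences and every gene called were named. Cell type markers were given by list, with only some called genes named. The 37 members and the other lists were chosen with earlier results of these data known. The trend correction (mgcv 1.9.3, smooth terms for row by brightness, column and GC content, each array against the array mean) may also take away some of a true difference. Other normalizations, filters, thresholds and variance models, a replicate block and each array left out were run as alternatives. The pipeline was tested on simulated data. Same-numbered mice did not deviate together (r of 0.126, -0.11 and -0.051).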

Additional observations from a re-analysis of the deposited data

How the results depend on the processing

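The count of members called was 1 under quantile normalization, normexp with an offset of 50, the deposited table, both other filters on dim probes, 1 probe per gene, the trend correction, the other variance model, array weights and the threshold of 0.10, each time Iigp1. Scaled to the median it was 1, Mx1. It was 0 with the mean of a gene's probes and with a replicate block, and 0 to 1 with each array left out. The trend correction with each array left out, chosen after seeing the data, gave 0 in all 6 fits, with Iigp1 between -0.54 and -0.79. The members' median lay between 0.07 and 0.15 under the settings with all 6 arrays, apart from median scaling (0.42), and between -0.20 and 0.39 with 1 array left out.

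Over all probes, calls higher and lower were 334 and 5258, or 5.97% higher. Quantile normalization gave 934 and 3239 (22.4%), the deposited values 920 and 3176 (22.5%), the trend correction 1584 and 2426 (39.5%), normexp 337 and 2832, no filter 663 and 5515, a filter on all 6 arrays 283 and 2921, a gene's mean 214 and 3879, the looser threshold 816 and 6583, and scaling to the median 6628 and 3825 (63.4%). The replicate block, whose numbers share no known litter or batch, gave 143 and 3410. With 3 against 3 mice, no exact two-sided p falls below 0.10.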
